A study of Arabidopsis thaliana with 15 samples.

Results

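The genes described here are those annotated as proteins of the cytosolic ribosome in Arabidopsis thaliana, the thale cress. A gene was included when it was protein-coding, lay on chromosomes 1 to 5, had "ribosomal protein" in its description without a word for a chloroplast, plastid or mitochondrial form, 30S, 50S, kinase or methyltransferase, and averaged at least 10 counts over the 15 libraries. Of 32833 genes in the count table, 273 met the wording and 250 also met the minimum. The 23 others stayed below it. The member nearest to the minimum from above was AT5G63300 with a mean of 10.9 counts, and the nearest gene below it was AT5G40040 with 7.7. All 250 members passed the filter on low counts and were tested.

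The libraries were made from whole seedlings, 1 week old, grown on half-strength Murashige and Skoog medium with 1% sucrose and left untreated. There were 3 libraries for each of 5 genotypes, which were the single mutants gyf1 and gyf2, the double mutants gyf1 gyf2-1 and gyf1 gyf2-2, and the wild type WT (Col-0). The GYF domain is a small fold with affinity for proline-rich stretches of other proteins. It is not stated in the labels which alleles the mutants carry, what distinguishes gyf1 gyf2-1 from gyf1 gyf2-2, or whether the libraries of a genotype came from separately grown seedlings. The p-values therefore measure the spread between these libraries, which may be technical.

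The cytosolic ribosome consists of a small 40S and a large 60S subunit, each an RNA scaffold studded with proteins that are encoded in the nucleus. Plants hold several near-equivalent gene copies (paralogues) for almost every ribosomal protein, and the copies together set the supply of that protein. Making ribosomes is one of the largest costs of a growing cell, and in plants as in animals the TOR kinase promotes it, in part through the S6 kinases that phosphorylate the small subunit protein S6.

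By their closest Swiss-Prot names, 206 of the 250 members encode structural proteins, namely 89 genes of the small subunit, 105 of the large subunit and 12 of the acidic stalk, the flexible arm of the large subunit that recruits elongation factors. They form 76 protein families, 75 of them with more than 1 member. The other 44 members are not structural by these names. They comprise 5 elongation factor genes, 16 genes of RNA processing or ribosome assembly and 23 others, among them AT1G26880, an L34 gene by its description. The rule also left out 8 genes named as 60S proteins L5, L18, L18a and L27a, because their description contains 50S.

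Libraries held 16567801 to 24681140 counts. The files pair no locus with the names GYF1 and GYF2. Of the 3 genes described as GYF domain-containing proteins, AT1G27430 averaged 33.0 ± 2.91 CPM for gyf2, 35.9 ± 3.49 for gyf1 gyf2-1 and 43.3 ± 8.21 for gyf1 gyf2-2, against 43.9 ± 5.41 in WT (SD, n = 3 each; CPM is the count scaled by library size), and no decrease passed the edgeR test (adjusted p = 0.0686, 0.0727 and 0.919). AT1G24300 was not called in any mutant (−0.28 to 0.17 on the log2 scale), and AT5G42950 rose by 0.34 in gyf1 gyf2-1 and by 0.29 in gyf1 gyf2-2 (adjusted p = 0.0227 and 0.0496). The mutant labels were therefore not checked on a targeted gene. By the mean absolute log2 difference over all tested genes, the library farthest from the other 2 of its genotype was replicate 1 in gyf1, replicate 3 in gyf2, replicate 1 in gyf1 gyf2-1, replicate 2 in gyf1 gyf2-2 and replicate 1 in WT. In any 3 libraries 1 is farthest, so this does not show that a library stands apart, and in gyf1 the distances were close (0.217 and 0.233, against 0.216 between the other 2). Within its genotype gyf2 replicate 3 was also lowest, and the other 4 were highest, in the share of counts from the 250 genes, so main counts are given with and without these 5. Of 9 root marker genes none was called in any mutant against WT, and of 4 green tissue genes RBCS1A rose and RBCS1B fell in both double mutants.

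Together the 250 genes took between 4.26 and 6.30% of a library's counts. For replicates 1 to 3, gyf1 gave 5.61, 5.34 and 5.23% and gyf2 gave 5.33, 5.56 and 4.92%. The double mutant gyf1 gyf2-1 gave 4.97, 4.26 and 4.404% and gyf1 gyf2-2 gave 4.36, 5.02 and 4.63%, against 6.30, 5.58 and 5.23% in WT. All 6 double mutant libraries lay below all 3 WT libraries, while both single mutants overlapped WT. Means were 5.39 ± 0.195% for gyf1, 5.27 ± 0.325% for gyf2, 4.55 ± 0.376% for gyf1 gyf2-1 and 4.67 ± 0.331% for gyf1 gyf2-2, against 5.70 ± 0.547% in WT (SD, n = 3 each). Without WT replicate 1 the WT mean was 5.40%. In whole seedlings, fewer cells rich in these transcripts and less of the transcripts per cell cannot be told apart.

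**Figure D1:**
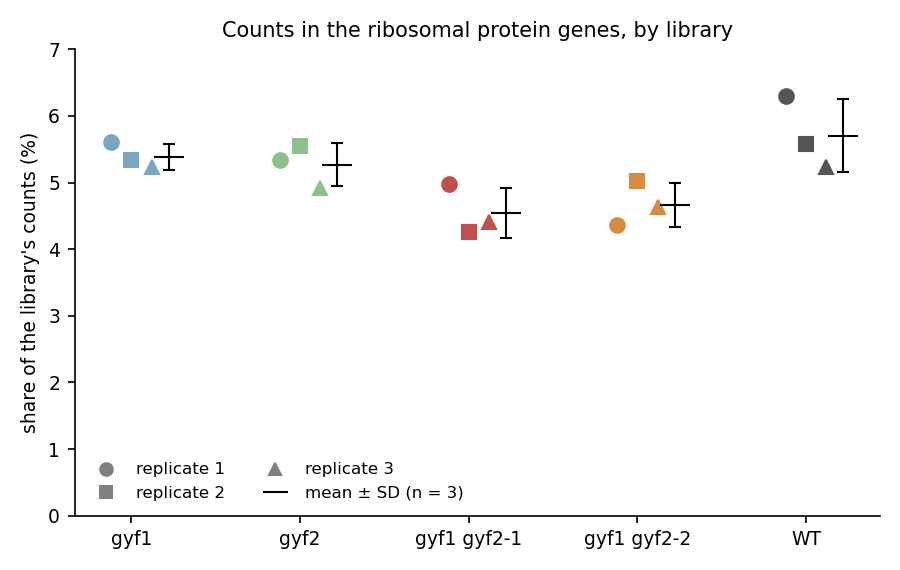
Share of each library's counts (%) that fell in the 250 ribosomal protein genes, with 1 point per library and the mean ± SD of 3 beside them. The double mutant libraries sit between 4.26 and 5.02%, below the lowest WT library at 5.23%.

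Per transcript length, the most abundant members were RPS8A, RPL14B, the L23 gene emb2171, RPL19A and RPS23B. RPS8A, whose protein S8 belongs to the small subunit, averaged 758 ± 81.3 FPKM in gyf1 gyf2-1 and 746 ± 16.2 in gyf1 gyf2-2, against 972 ± 78.8 in WT (SD, n = 3 each; FPKM is fragments scaled by gene length and library size). RPL14B averaged 708 ± 125.6 FPKM in gyf1 gyf2-1 and 709 ± 17.4 in gyf1 gyf2-2, against 851 ± 108.1 in WT. RPL19A, for L19 at the joint between the subunits, averaged 617 ± 60.9 and 649.8 ± 45.0 FPKM in the same double mutants, against 839 ± 71.5 in WT. RPS8A and RPL19A fell in both double mutants, by 0.36 and 0.38 (RPS8A) and by 0.45 and 0.37 (RPL19A) on the log2 scale, with edgeR adjusted p of at most 0.000503. RPL14B did not pass the test in either (−0.27 and −0.27, adjusted p = 0.0827 and 0.0847), nor did emb2171 (−0.39 and −0.38, adjusted p = 0.0676 and 0.0715), and for both genes gyf1 gyf2-1 replicate 1 lay above WT replicate 3 in FPKM. At the other end, AT5G25230, AT5G63300, AT1G59359, AT1G53950 and the stalk gene RPP2C averaged under 2 FPKM, and none of them passed the test in either double mutant.

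The promoters of ribosomal protein genes in plants are known for 2 short motifs, the telo box and the site II element, which are bound by telomere repeat-binding and TCP transcription factors among others. Windows from 250 bases before to 50 bases after the annotated start were read from the RefSeq genome (TAIR10.1), in which all 250 members have the coordinates and strand given in the files. Searched on both strands, the telo box AAACCCTA was present in 49.5% of the 206 structural genes, against 6.22% of 27438 protein-coding genes. Site II, searched as TGGGCC or TGGGCT, was present in 76.7% of structural genes, against 21.7% of protein-coding genes. Both motifs were present in 40.8% of structural genes, against 2.20% of protein-coding genes, and 14.6% of structural genes had neither. The 44 non-structural members had a telo box in 22.7% and site II in 36.4%. The 250 bases before the start of 4 genes show the range, with matches in capitals, for genes named below whose window overlaps no annotated exon. RPS6B has overlapping site II matches and a single one, RPL12C has telo boxes alone, ARP1 has 3 site II matches, and RPP2D, one of the genes with the largest falls, has neither motif.
RPS6B: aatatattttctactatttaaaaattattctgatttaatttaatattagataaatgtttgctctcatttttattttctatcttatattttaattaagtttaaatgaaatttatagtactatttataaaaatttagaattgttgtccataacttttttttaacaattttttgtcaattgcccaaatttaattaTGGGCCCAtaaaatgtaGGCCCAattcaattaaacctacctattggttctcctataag
RPL12C: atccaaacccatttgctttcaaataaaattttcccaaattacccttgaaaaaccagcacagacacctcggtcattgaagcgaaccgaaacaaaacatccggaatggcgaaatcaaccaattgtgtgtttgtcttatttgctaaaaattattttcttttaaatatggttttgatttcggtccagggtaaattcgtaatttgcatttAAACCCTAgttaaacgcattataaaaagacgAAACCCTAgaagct
ARP1: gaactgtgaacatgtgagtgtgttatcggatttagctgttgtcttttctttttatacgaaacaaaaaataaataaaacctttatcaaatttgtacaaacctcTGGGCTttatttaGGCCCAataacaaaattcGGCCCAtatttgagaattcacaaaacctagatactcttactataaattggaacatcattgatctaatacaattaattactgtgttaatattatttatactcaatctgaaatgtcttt
RPP2D: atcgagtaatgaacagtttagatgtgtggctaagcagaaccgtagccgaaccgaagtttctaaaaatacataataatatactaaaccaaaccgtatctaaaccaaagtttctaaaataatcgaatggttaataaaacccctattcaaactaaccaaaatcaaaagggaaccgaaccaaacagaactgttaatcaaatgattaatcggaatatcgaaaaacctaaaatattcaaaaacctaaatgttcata
These windows are chr5:3260255-3260504 (minus strand), chr5:24381600-24381849 (minus strand), chr1:16266303-16266552 (plus strand) and chr3:16163459-16163708 (plus strand), each written 5′ to 3′ towards its gene. RPS6B has in addition a telo box that begins 23 bases after the start, outside the printed stretch. A match is a run of letters and not evidence that a factor binds.

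In both double mutants the ribosomal protein genes were lower than in WT as a group and by a similar, small amount. In gyf1 gyf2-1, 138 of the 250 members fell and 2 rose (edgeR quasi-likelihood test, adjusted p below 0.05), where 11.7% of all tested genes fell and 14.2% rose. In gyf1 gyf2-2, 120 fell and 7 rose, where 12.6% of all tested genes fell and 15.1% rose. The median log2 fold change of the members was −0.31 in gyf1 gyf2-1 (a fold of 0.808, quartiles −0.39 and −0.20) and −0.28 in gyf1 gyf2-2 (a fold of 0.821, quartiles −0.36 and −0.16), while the median over all 20721 tested genes was −0.01 in both. The fitted change was negative for 236 and 228 of the 250 genes. Every mutant library lay below every WT library for 118 members in gyf1 gyf2-1 and 132 in gyf1 gyf2-2, where 18.7 and 18.9% of all tested genes did so. The comparisons share their WT libraries, and 112 members fell in both.

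The size of the decrease depended on the libraries used. Without WT replicate 1, which was high in these transcripts, 79 members fell in gyf1 gyf2-1 and 81 in gyf1 gyf2-2, where 8.65 and 10.4% of all tested genes fell, and the medians were −0.22 and −0.18. Without gyf1 gyf2-1 replicate 2 or replicate 3, 81 and 91 members fell in that mutant, where 7.28 and 8.13% of all tested genes fell, and without its replicate 1, 188 did, where 11.6% fell. Without gyf1 gyf2-2 replicate 1, 80 fell in that mutant, where 9.09% of all tested genes fell. With the farthest library of each genotype left out, an alternative chosen after the data were seen, 181 and 151 members fell and the medians were −0.31 and −0.24, where 11.3 and 12.4% of all tested genes fell.

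**Figure D2:**
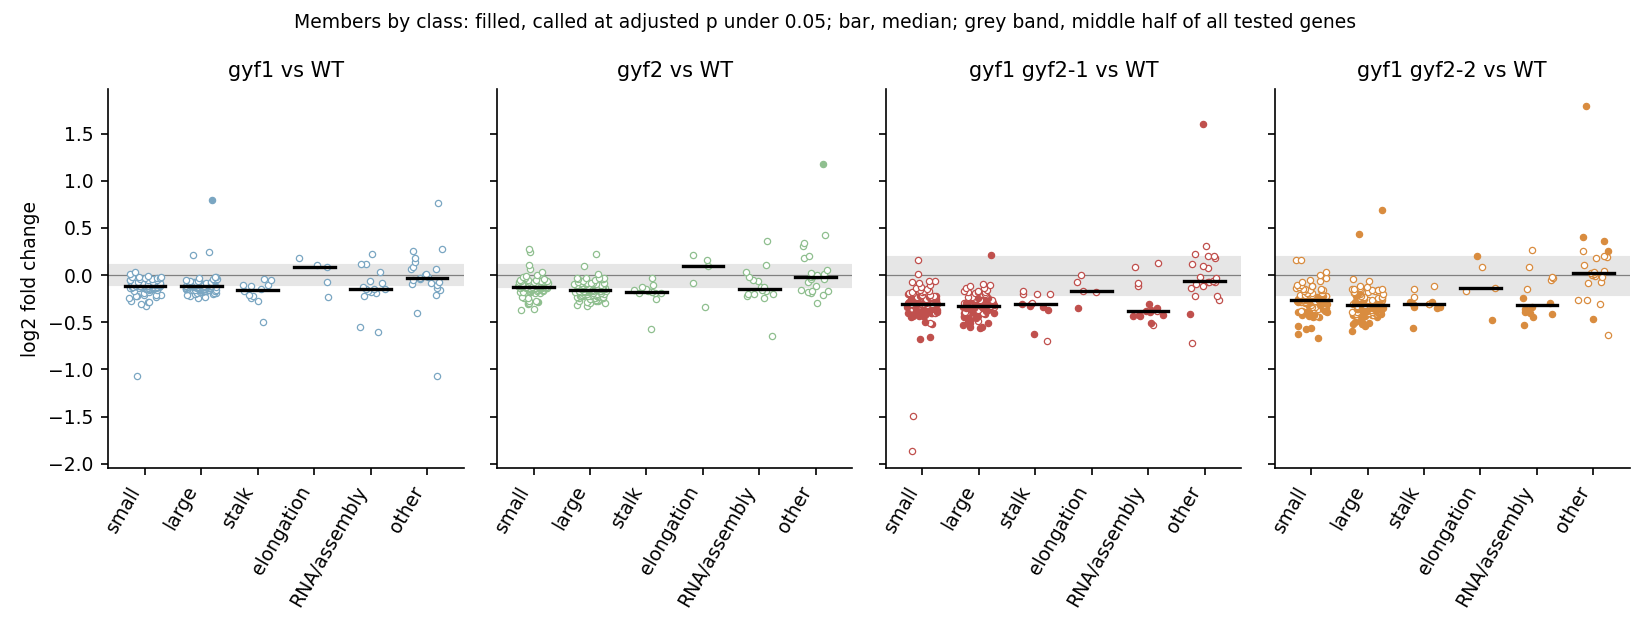
Log2 fold change of each member against WT in the 4 mutants, by class, with filled points for called genes, a bar at the class median and a grey band over the middle 50% of all tested genes. In the double mutants the small subunit, large subunit, stalk and RNA processing or assembly classes have medians from −0.38 to −0.27, below the grey band, while the class of other genes has medians of −0.07 and 0.03.

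Of the 89 small subunit genes, 54 fell in gyf1 gyf2-1 and 45 in gyf1 gyf2-2, where 11.7 and 12.6% of all tested genes fell. None of the 89 rose. RPS6A and RPS6B encode S6, the small subunit protein phosphorylated by the S6 kinases. RPS6A had 472, 416 and 446 CPM in gyf1 gyf2-1 and 401, 467 and 475 CPM in gyf1 gyf2-2, against 669, 589 and 548 CPM in WT. The double mutant libraries did not overlap WT, and RPS6A fell by 0.44 ± 0.08 and 0.43 ± 0.08 on the log2 scale (SE, edgeR adjusted p = 6.13e-05 and 6.24e-05). RPS6B had 369, 328 and 338 CPM in gyf1 gyf2-1 and 327, 346 and 343 CPM in gyf1 gyf2-2, against 446, 407 and 389 CPM in WT, again without overlap. It fell by 0.26 ± 0.06 and 0.29 ± 0.06 (adjusted p = 0.0034 and 0.00116).

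Among the small subunit genes called in gyf1 gyf2-1, RPS15AB and RPSAB had the largest falls. The S2 copy AT1G58684 had a lower fitted value (−1.86) and was not called. RPS15AB, a copy of S15a, had 8.34, 5.97 and 7.00 CPM in gyf1 gyf2-1 and 7.15, 7.51 and 6.81 CPM in gyf1 gyf2-2, against 12.6, 10.5 and 11.1 CPM in WT. It fell by 0.68 ± 0.14 and 0.67 ± 0.14 on the log2 scale (SE, edgeR adjusted p = 0.00048 and 0.000368). RPSAB encodes a copy of Sa, related to the animal laminin receptor protein, and had 12.2, 11.4 and 10.1 CPM in gyf1 gyf2-1 and 10.5, 12.4 and 11.8 CPM in gyf1 gyf2-2, against 18.7, 19.2 and 15.3 CPM in WT. It fell by 0.66 ± 0.12 and 0.62 ± 0.12 (adjusted p = 0.000151 and 0.000208). The falls of both genes were called in all 15 alternative analyses of each double mutant. RPS19B fell by 0.51 and 0.57 in the 2 double mutants, RPS2D by 0.35 and 0.56, and RPS11B by 0.38 and 0.54.

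Of the 105 large subunit genes, 66 fell and 1 rose in gyf1 gyf2-1, where 11.7% of all tested genes fell and 14.2% rose. In gyf1 gyf2-2, 56 fell and 2 rose, where 12.6% of all tested genes fell and 15.1% rose. RPL24A, a copy of L24, had 198, 139 and 146 CPM in gyf1 gyf2-1 and 157, 167 and 172 CPM in gyf1 gyf2-2, against 261, 226 and 223 CPM in WT. The groups did not overlap, and RPL24A fell by 0.56 ± 0.10 and 0.52 ± 0.10 on the log2 scale (SE, edgeR adjusted p = 0.000535 and 0.00076). RPL14A had 97.4, 68.5 and 76.2 CPM in gyf1 gyf2-1 and 75.4, 80.4 and 78.6 CPM in gyf1 gyf2-2, against 134, 113 and 107 CPM in WT, and fell by 0.55 ± 0.11 and 0.60 ± 0.11 (adjusted p = 0.00124 and 0.00047). Other large falls in gyf1 gyf2-1 were those of the L23 gene AT1G04480 (0.56) and of RPL12C (0.53) and RPL12B (0.51), copies of L12, which sits at the base of the stalk. The RPL12C call in gyf1 gyf2-1 was lost without WT replicate 1 and without gyf1 gyf2-1 replicate 2 or 3 (adjusted p up to 0.0741). In gyf1 gyf2-2, RPL35D, a copy of L35 near the exit of the peptide tunnel, fell by 0.54 (adjusted p = 0.000456).

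In the stalk, P0 anchors the acidic proteins P1, P2 and the plant-specific P3. Of its 12 genes, 6 fell in gyf1 gyf2-1 and 7 in gyf1 gyf2-2, where 11.7 and 12.6% of all tested genes fell. None of the 12 rose. RPP0B, with the highest CPM of the 12, had 643, 599.9 and 632 CPM in gyf1 gyf2-1 and 593, 648 and 650.2 CPM in gyf1 gyf2-2, against 792, 783 and 737 CPM in WT. It fell without overlap by 0.30 ± 0.06 and 0.29 ± 0.06 on the log2 scale (SE, edgeR adjusted p = 0.000394 and 0.000491). RPP2D, a P2 copy, had 65.3, 48.4 and 47.2 CPM in gyf1 gyf2-1 and 51.3, 61.8 and 54.8 CPM in gyf1 gyf2-2, against 101, 76.1 and 70.6 CPM in WT, and fell by 0.62 ± 0.15 and 0.56 ± 0.15 (adjusted p = 0.00749 and 0.012). Its call in gyf1 gyf2-2 was lost without replicate 1 of that mutant (adjusted p = 0.0523). RPP2B fell by 0.37 and 0.34, RPP2A by 0.31 and 0.28 and RPP1B by 0.33 and 0.33 in the 2 double mutants. RPP1A fell by 0.34 in gyf1 gyf2-1, and RPP0C and RPP3B fell by 0.34 and 0.30 in gyf1 gyf2-2. The calls of RPP1A, RPP1B, RPP2A and RPP3B were lost when WT replicate 1 was left out, among other libraries. RPP1C, RPP3A, RPP0A and RPP2C did not pass the test in either double mutant (log2 fold changes from −0.70 to −0.12).

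When the normalised counts of the structural members of a family were summed, the direction was nearly the same over all families, while the size varied. In gyf1 gyf2-1 all 76 families had a lower mean than in WT, with a median log2 ratio of −0.33 and a range from −0.49 to −0.06. In gyf1 gyf2-2, 75 of 76 families did, with a median of −0.29, and L7a was the exception at 0.24. Every mutant library lay below every WT library for 44 families in gyf1 gyf2-1 and 50 in gyf1 gyf2-2. Of all tested genes, taken singly, 18.7 and 18.9% did so. The 5 families with the lowest ratio in gyf1 gyf2-1 were L12 (−0.49), S11 (−0.44), L35 (−0.43), L31 (−0.43) and L36a (−0.42), and in gyf1 gyf2-2 the same families had ratios from −0.42 to −0.37. Copies of a family were also close to each other, since the median span of log2 fold change within the 75 families of several genes was 0.13 in gyf1 gyf2-1 and 0.15 in gyf1 gyf2-2. All summed copies fell in 28 families in gyf1 gyf2-1 and in 20 families in gyf1 gyf2-2. At least 1 copy fell in 64 and 59, where 11.7 and 12.6% of all tested genes fell. A family of several copies reaches this more easily than a single gene does.

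**Figure D3:**
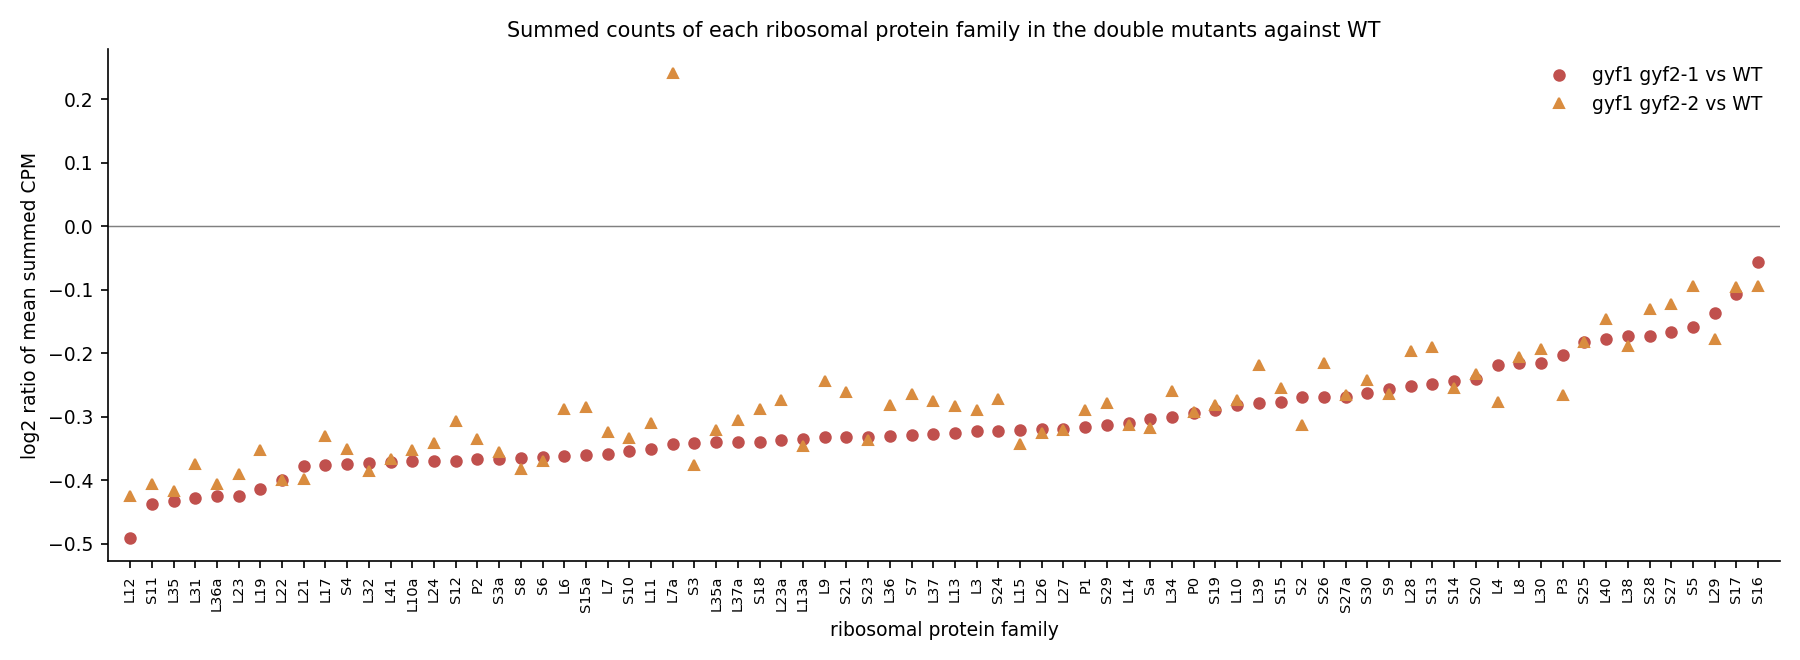
Log2 ratio of mean summed CPM of each of the 76 ribosomal protein families in gyf1 gyf2-1 (circles) and gyf1 gyf2-2 (triangles) against WT, ordered by the gyf1 gyf2-1 value. All points lie below 0 except L7a in gyf1 gyf2-2, at 0.24.

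In 2 families a copy was called in the direction opposite to its partner. L3, which reaches towards the peptidyl transferase centre, is encoded by ARP1 (AT1G43170, L3-1) and ARP2 (AT1G61580, L3-2). ARP1 had 707, 665 and 744 CPM in gyf1 gyf2-1 and 685, 735 and 720.5 CPM in gyf1 gyf2-2, against 894, 953 and 871 CPM in WT. It fell by 0.36 ± 0.06 and 0.34 ± 0.06 on the log2 scale (SE, edgeR adjusted p = 4.36e-05 and 5.97e-05). ARP2 had 68.2, 54.3 and 59.1 CPM in gyf1 gyf2-1 and 66.4, 75.2 and 70.8 CPM in gyf1 gyf2-2, against 54.2, 51.0 and 51.7 CPM in WT. All double mutant libraries lay above all WT libraries, and ARP2 rose by 0.21 ± 0.08 in gyf1 gyf2-1 and by 0.44 ± 0.07 in gyf1 gyf2-2 (adjusted p = 0.0366 and 4.41e-05). The rise in gyf1 gyf2-1 was lost in 7 of 15 alternative analyses (adjusted p up to 0.277), and the rise in gyf1 gyf2-2 in none.

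The other family was L7a, where the 2 double mutant lines went opposite ways. RPL7AA (AT2G47610, chromosome 2, 19529743 to 19531677, plus strand) had 705, 662 and 721 CPM in gyf1, 369.9, 384 and 335 CPM in gyf2, 324, 293 and 310.4 CPM in gyf1 gyf2-1, and 592, 706 and 642 CPM in gyf1 gyf2-2, against 415, 402 and 385 CPM in WT. The gyf1 and gyf1 gyf2-2 libraries were all above WT, and the gyf2 and gyf1 gyf2-1 libraries all below. RPL7AA rose by 0.80 ± 0.07 in gyf1 and by 0.69 ± 0.07 in gyf1 gyf2-2 on the log2 scale (SE, edgeR adjusted p = 1.23e-08 and 7.08e-09) and fell by 0.37 ± 0.07 in gyf1 gyf2-1 (adjusted p = 0.000165). In gyf2 its change of −0.14 did not pass (adjusted p = 0.355). Between the lines, gyf1 gyf2-2 was higher than gyf1 gyf2-1 by 1.06 ± 0.07 (adjusted p = 7.55e-11). In this comparison 9 of the 250 members had an unadjusted p below 0.05, beside 1539 of 20721 tested genes. RPL7AA was the only member called between the lines in either direction (0.159% of all tested genes were called higher and 0.0724% lower). Its paralogue RPL7AB, on chromosome 3, fell by 0.32 ± 0.07 in gyf1 gyf2-1 and by 0.34 ± 0.07 in gyf1 gyf2-2.

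RPL7AA did not stand alone in its stretch of chromosome 2. Among the 30 tested genes that start within 50 kb of it, 8 rose in gyf1, and these 8, from AT2G47580 to AT2G47650, are consecutive tested genes. Their log2 fold changes were 0.80 to 1.09 in gyf1 and 0.69 to 1.00 in gyf1 gyf2-2, where each also rose. In gyf2 none of the 8 was called (−0.14 to 0.04), and in gyf1 gyf2-1 RPL7AA and AT2G47580 fell and the other 6 were not called (−0.12 to 0.06). The neighbours just outside, AT2G47560 and AT2G47670, were not called in gyf1 (−0.17 and −0.33) or in gyf1 gyf2-2 (0.20 and 0.28). The window was examined after the RPL7AA values were seen, and the cause of the step was not tested. By their names both double mutant lines carry gyf1, and gyf1 gyf2-1 lacked the step seen in gyf1 and in gyf1 gyf2-2. The comparisons below that average both lines treat them alike.

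**Figure D4:**
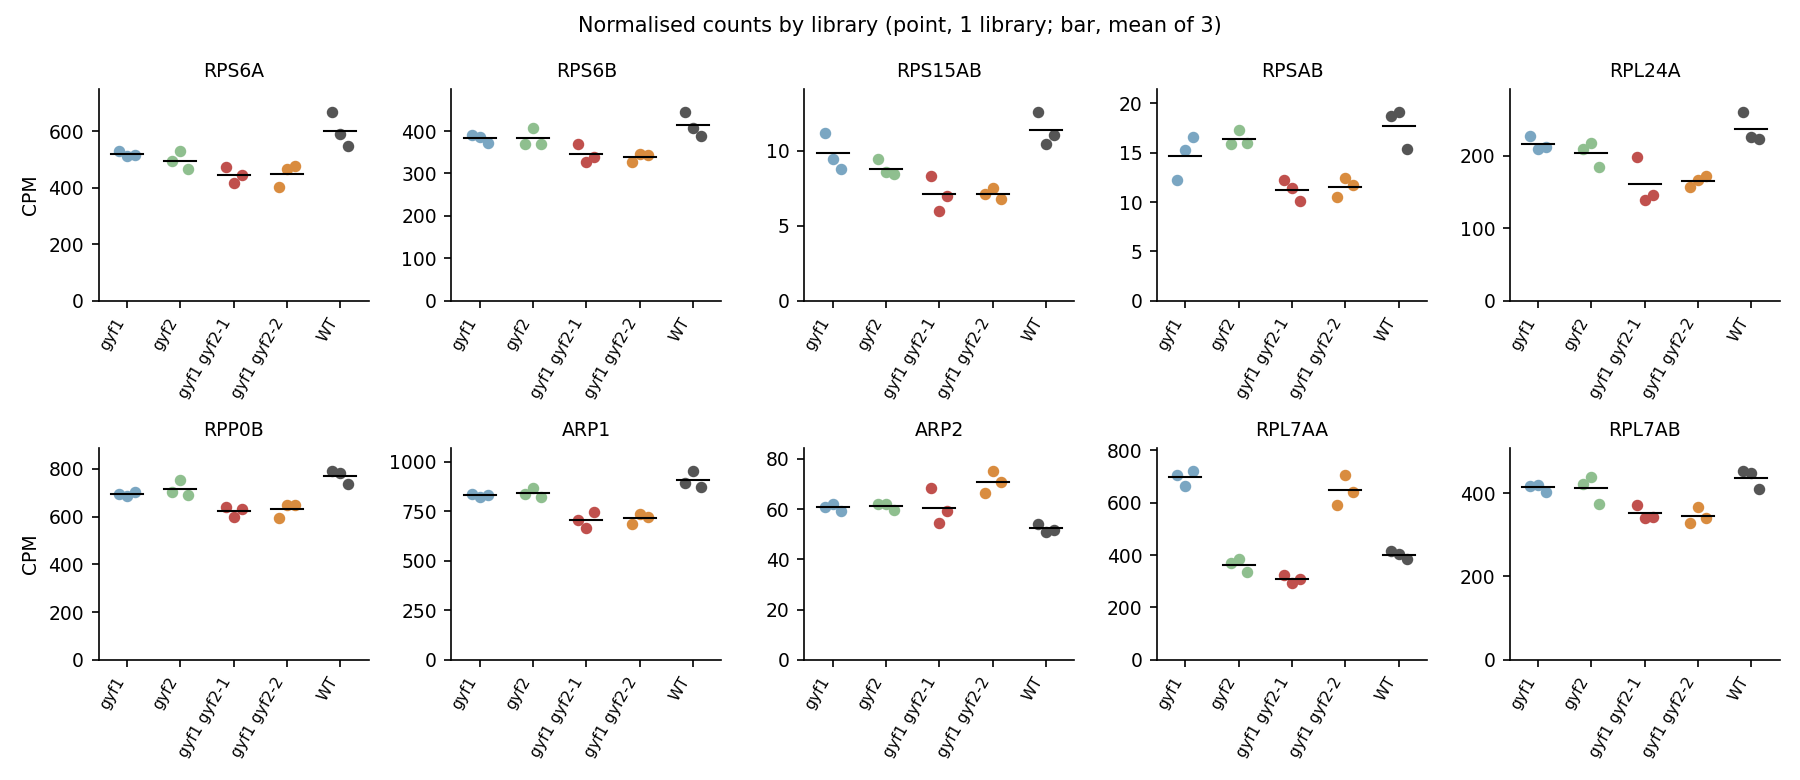
Normalised counts (CPM) of 10 ribosomal protein genes in each library, with a bar at the mean of 3. RPS6A, RPS6B, RPS15AB, RPSAB, RPL24A, RPP0B, ARP1 and RPL7AB are lower in both double mutants than in WT, ARP2 is higher, and RPL7AA is high in gyf1 and gyf1 gyf2-2 and low in gyf1 gyf2-1.

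**Figure D5:**
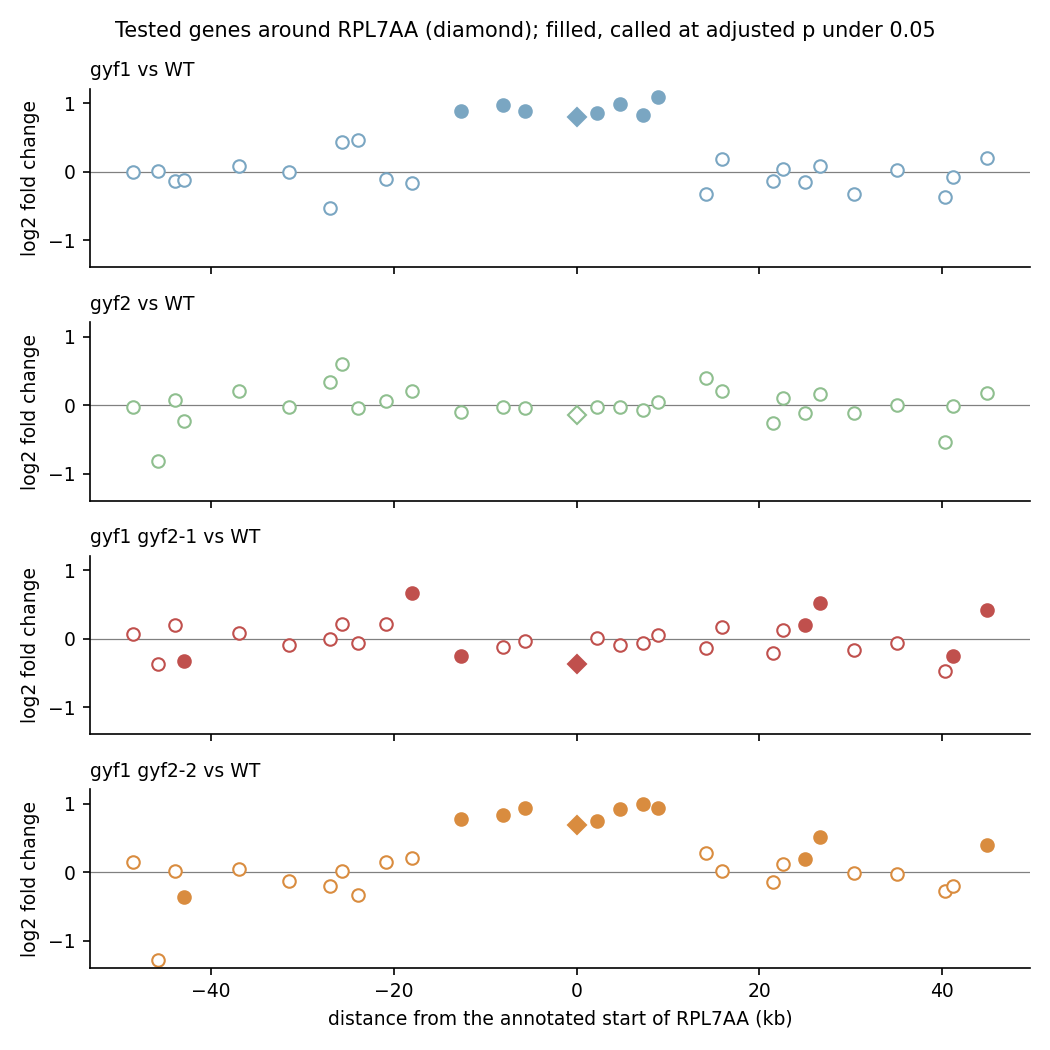
Log2 fold change against WT of the 30 tested genes around RPL7AA (diamond) by distance from its annotated start (kb), with filled symbols for called genes. A run of 8 genes lies between 0.69 and 1.09 in gyf1 and gyf1 gyf2-2, between −0.14 and 0.04 in gyf2 and between −0.37 and 0.06 in gyf1 gyf2-1, where 2 of them fell.

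The single mutants showed little that passed the test. In gyf1, RPL7AA was the only member that rose and none fell, where 0.405% of all tested genes rose and 0.116% fell. An unadjusted p below 0.05 was reached by 31 of the 250 members, beside 2099 of 20721 tested genes. In gyf2, AT2G32030 rose and RPS6A fell, where 1.99% of all tested genes rose and 0.516% fell. There, 44 of the 250 members had an unadjusted p below 0.05, beside 2830 of 20721 tested genes. RPS6A had 492, 528 and 466 CPM in gyf2, against 669, 589 and 548 CPM in WT, a fall by 0.28 ± 0.07 on the log2 scale (SE, edgeR adjusted p = 0.0348) that was lost in 7 of 15 alternative analyses. The fitted changes were nevertheless mostly negative, for 228 members in gyf1 and 226 in gyf2. Their medians were −0.11 and −0.13, beside medians of −0.004 and −0.009 over all tested genes. A shift of near this size was not particular to the members. Tested genes of at most 1000 bases had medians of −0.08 and −0.10, and plastid ribosomal protein genes −0.12 and −0.09. Members longer than 1000 bases had medians of −0.10 and −0.12. Every library lay below WT for 32 members in gyf1 and 27 in gyf2, where 7.42 and 8.95% of all tested genes did so. The medians of all members rested on WT replicate 1, and without it they were −0.02 in gyf1 and −0.05 in gyf2. The genotype with the lowest mean was gyf1 gyf2-1 for 153 members, gyf1 gyf2-2 for 73, gyf2 for 12, gyf1 for 7 and WT for 5.

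Set directly against the mean of the single mutants, the double mutants were lower in 103 members and higher in 5, where 14.4% of all tested genes fell and 17.4% rose. WT does not enter this contrast, though the WT libraries share in the scaling and in the estimate of the spread. The median log2 fold change was −0.16, and the count of members that fell ranged from 81 to 152 when each of the 12 libraries was left out in turn. The largest falls were those of RPSAB (0.44), RPS2D (0.44), RPL35D (0.40), RPS15AB (0.39) and AT1G04480 (0.37), and the rises were all in non-structural members, AT2G32030 (0.72), AT4G26060 (0.55), AT3G01170 (0.31), AT1G17080 (0.30) and AT1G53560 (0.26). RPS2D had 32.05, 25.9 and 29.98 CPM in gyf1 gyf2-1 and 23.3, 27.97 and 24.3 CPM in gyf1 gyf2-2, against 36.4, 39.5 and 32.8 CPM in gyf1 and 37.6, 38.7 and 35.9 CPM in gyf2. All double mutant libraries lay below all single mutant libraries (edgeR adjusted p = 1.07e-05). In the same comparison 3 of 9 root markers were lower (median −0.17) and 3 of 12 dividing cell markers were lower (median −0.06). Of the 4 green tissue genes 3 were higher and RBCS1B was lower (median 0.23), and the part of these tissues in the decrease was not tested. RPS6A and RPS6B were lower by 0.18 ± 0.05 and 0.16 ± 0.05 (SE, adjusted p = 0.00803 and 0.00783), with overlapping libraries.

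Whether the double mutants differed from the sum of the single mutants was tested as non-additivity, the mean log2 change of the double mutants minus the summed changes of the single mutants. The result was below the sum for 6 members and above it for 2, where 2.35 and 4.85% of all tested genes were called, and the median was −0.04. RPL10B, a copy of L10, was below the sum by 0.54 ± 0.14 (SE, edgeR adjusted p = 0.0193). It had 20.9, 15.3 and 22.7 CPM in gyf1 gyf2-1 and 17.6, 18.5 and 20.6 CPM in gyf1 gyf2-2, beside 28.1, 25.01 and 25.6 CPM in gyf1 and 22.9, 25.8 and 22.5 CPM in gyf2, against 20.2, 23.0 and 23.6 CPM in WT. RPL7AA was below by 0.49 ± 0.09 on the mean of 2 lines that differ from each other. With the farthest library of each genotype left out, 75 members were below the sum and 1 above it, and the median was −0.22, where 3.17% of all tested genes were called below it. The medians of gyf1 and gyf2 against WT were then −0.05 and 0.01. The library left out was the lowest of its genotype in the share of member counts in gyf2, and the highest in the other genotypes. Leaving out each of them except that of gyf1 itself moves the members towards below the sum. The higher count therefore cannot decide whether the members were non-additive.

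Among the 44 non-structural members, the 16 genes of RNA processing and assembly moved like the ribosomal proteins, with medians of −0.38 and −0.32. Of these 16, 10 were lower in each double mutant and none was higher, where 11.7 and 12.6% of all tested genes fell. They included AT4G22380, an NHP2-like protein of the kind that binds kinked RNA in spliceosomal and nucleolar particles, which fell by 0.51 and 0.52, and AT2G44860, the homologue of the large subunit assembly factor RLP24, which fell by 0.42 and 0.44. Of the 5 elongation factor genes, AT3G12915, an eEF2 copy, fell by 0.35 and 0.47 in the double mutants. However, 78.0% of its 100-base windows also occur, on either strand, in another annotated gene, so its counts may be uncertain. AT2G18110, a subunit of eEF1B, rose by 0.21 in gyf1 gyf2-2, a call lost in 5 of 15 alternative analyses, and the main eEF2 gene LOS1 was not called (0.00 and −0.14). Of the 23 other members, AT2G32030, described as an acetyltransferase of ribosomal protein S5, had 4.17, 4.69 and 4.15 CPM in gyf1 gyf2-1 and 4.05, 5.73 and 4.95 CPM in gyf1 gyf2-2, against 1.36, 1.00 and 1.91 CPM in WT. It rose by 1.61 ± 0.25 and 1.79 ± 0.25 on the log2 scale (SE, edgeR adjusted p = 1.96e-05 and 2.11e-06). In gyf2 it had 3.59, 2.60 and 3.44 CPM and rose by 1.18 ± 0.26 (adjusted p = 0.00541). AT4G26060, AT5G15260 and AT1G17080 rose in gyf1 gyf2-2 by 0.41, 0.36 and 0.26, and the AT5G15260 call was lost in 11 of 15 alternative analyses. AT1G26880, an L34 gene by its description that lands here because its Swiss-Prot match is an F-box protein, fell by 0.41 and 0.47.

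Some features of the genes bear on how the counts read. Members are short, with a median length of 976.5 bases beside 1760 over tested genes, and the 2911 tested genes of at most 1000 bases had medians of −0.12 in gyf1 gyf2-1 and −0.09 in gyf1 gyf2-2. Members of at most 1000 bases had medians of −0.29 and −0.27, and longer members −0.33 and −0.29. Of the 250 members, 16 share more than 20% of their 100-base transcript windows with another gene. Windows were matched on either strand, so a shared window can be overlap with a neighbouring gene as well as copied sequence. The S2 copies AT1G58684, AT1G58983 and AT1G59359 share all of their windows, so the counts of these copies cannot be assigned to 1 copy. Of the 8 genes that the rule left out, 6 fell in gyf1 gyf2-1 and 5 fell and 1 rose in gyf1 gyf2-2. Over all tested genes, 11.7 and 12.6% fell, and 15.1% rose in gyf1 gyf2-2. The falls of RPL27AC (0.50 and 0.54) and RPL5A (0.40 and 0.36) were of the size seen in the members.

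The median change was negative in structural genes with and without these motifs. It was smallest in those with neither, though the medians lay close together. Structural genes with both motifs had median log2 fold changes of −0.32 in gyf1 gyf2-1 and −0.29 in gyf1 gyf2-2 (84 genes), those with a telo box alone −0.31 and −0.25 (18 genes), those with site II alone −0.33 and −0.32 (74 genes) and those with neither −0.28 and −0.24 (30 genes). In the same order, 49 and 42 of the 84 genes fell, 12 and 9 of 18, 50 and 45 of 74, and 15 and 12 of 30. The shares of all tested genes that fell were 11.7 and 12.6%. Tested protein-coding genes that are not members had medians of −0.10 and −0.10 with both motifs (382 genes). The medians were −0.07 and −0.09 with a telo box alone (605 genes) and −0.04 and −0.03 with site II alone (4451 genes). With neither motif they were 0.01 and 0.01 (14547 genes). These medians and counts are descriptions, and a link to the motifs was not tested.

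Genes that act on ribosomal proteins were followed as short lists. Of 11 genes of ribosomal RNA transcription, modification and assembly, 7 fell in gyf1 gyf2-1 and 8 in gyf1 gyf2-2. Their medians were −0.25 and −0.29, and 11.7 and 12.6% of all tested genes fell. FIB2, a fibrillarin that methylates ribosomal RNA, had 95.0, 81.5 and 91.8 CPM in gyf1 gyf2-1 and 79.0, 99.9 and 91.0 CPM in gyf1 gyf2-2, against 127, 127 and 111 CPM in WT, and fell by 0.44 ± 0.08 and 0.43 ± 0.08 on the log2 scale (SE, edgeR adjusted p = 0.000225 and 0.000209). The nucleolin gene NUC1 fell by 0.29 and 0.34, and FIB1, NOP56, NOP58-1, CBF5 and REIL2 fell by 0.25 to 0.36 in both, with NOP58-2 in addition in gyf1 gyf2-2 (0.18). All 3 RACK1 genes, which encode a scaffold on the small subunit, fell in both double mutants, RACK1A by 0.24 and 0.24, RACK1B by 0.43 and 0.46 and RACK1C by 0.48 and 0.51. The 4 tested ubiquitin fusion genes in the same list, which release L40 or S27a, are themselves members and were counted above. Of these, UBQ5 and UBQ6 fell in both.

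Of 17 listed genes of the TOR pathway, 16 were tested. Against WT, 6 rose in each double mutant and none fell, where 14.2 and 15.1% of all tested genes rose. Against the single mutants, 6 were higher and 1 was lower, where 17.4% of all tested genes were higher and 14.4% lower. S6K1 was not called against WT. It averaged 67.7 ± 2.69 CPM in gyf1 gyf2-1 and 69.0 ± 2.97 CPM in gyf1 gyf2-2, against 76.2 ± 4.33 CPM in WT. S6K2, an S6 kinase, had 33.6, 29.6 and 28.7 CPM in gyf1 gyf2-1 and 39.0, 41.2 and 34.6 CPM in gyf1 gyf2-2, against 15.3, 16.4 and 16.1 CPM in WT, and rose by 0.94 ± 0.10 and 1.26 ± 0.10 on the log2 scale (SE, edgeR adjusted p = 3.53e-08 and 5.84e-11). MRF3, one of a small family of translation factors under TOR, rose by 1.98 ± 0.37 and 1.82 ± 0.37 from a low level (2.41 to 3.35 CPM in gyf1 gyf2-1 and 2.27 to 2.87 CPM in gyf1 gyf2-2, against 0.45 to 1.13 CPM in WT). MRF1, MRF4, RAPTOR1B and LST8-1 rose by 0.20 to 0.58 in the 2 double mutants. TOR itself was not called in either mutant (0.42 and 0.26, adjusted p = 0.0886 and 0.288). Of 6 factors known or proposed to act on ribosomal protein promoters or nucleolar stress, only ANAC082, a NAC factor of the ribosomal stress response, was called, and it rose by 0.50 and 0.36. None of these list genes was called in a single mutant.

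Ribosomal protein genes of plastids and mitochondria were followed for comparison. Of 49 plastid ribosomal protein genes, 17 (34.7%) fell and 1 rose in gyf1 gyf2-1, and 20 (40.8%) fell and 1 rose in gyf1 gyf2-2. Their medians were −0.20 and −0.18. Of 30 mitochondrial ones, 8 (26.7%) fell in gyf1 gyf2-1, and 4 (13.3%) fell and 1 rose in gyf1 gyf2-2, with medians of −0.19 and −0.16. Over all tested genes, 11.7% fell in gyf1 gyf2-1 and 12.6% in gyf1 gyf2-2. Of these organelle counts, only the 4 of 30 was near that share. Markers of dividing cells, in which ribosomal protein genes are highly expressed, summed to 289 ± 9.36 CPM in gyf1 gyf2-1 and 300.0 ± 15.6 CPM in gyf1 gyf2-2, against 325 ± 11.6 CPM in WT (SD, n = 3 each, 12 genes). Of the 12, 3 fell in each double mutant, with medians of −0.15 and −0.09, and the part of cell division in the decrease of the ribosomal protein genes was not tested.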

How the data were processed

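Messenger RNA of whole seedlings was sequenced from strand-specific libraries as paired reads, per the labels. The deposited count table gives whole-number counts per gene, and HISAT2 2.0.4, HTSeq 0.6.1p1 and TAIR10 are named in the submitters' processing notes. None of the sources used here gives the strand setting of the counting. The deposited FPKM table, whose library factor the authors do not state, was used for levels only. The whole count table was fitted in edgeR 4.0.16 (R 4.3.3, quasi-likelihood, robust, TMM scaling, default expression filter, 1 mean per genotype), and 12112 of 32833 genes were filtered. Adjusted p is by Benjamini-Hochberg over 20721 genes, and a gene was called below 0.05. Each SE was derived from the fold change and the F statistic. The design text speaks of duplicates, but each genotype had 3 libraries. Libraries of a genotype differed by more than sampling noise. Fits were tested on simulated data. Named genes were the 10 largest called rises and falls of each comparison with WT (5 in the other comparisons) at a mean log2 CPM of at least 1, the 5 highest and lowest by FPKM, the S6 and stalk genes, oppositely called paralogues and called pathway genes. The members and lists were chosen with earlier results of these data known. Alternatives were other scalings, filters, tools and member rules, a replicate block, and leaving out libraries (limma 3.58.1, DESeq2 1.42.0). Figures were drawn with matplotlib 3.10.9.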

Additional observations from a re-analysis of the deposited data

Results flagged for a closer look

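In the tests between the double mutant lines and of non-additivity, 8 members were called. Between the double mutant lines, RPL7AA differed, with a log2 fold change of 1.06 in gyf1 gyf2-2 over gyf1 gyf2-1. In the test of non-additivity, the double mutants were below the sum of the single mutants for RPL10B (−0.54), RPL7AA (−0.49), RPS2D (−0.42), the U5 snRNP gene MEE5 (−0.38) and the eEF1B subunit genes AT2G18110 (−0.33) and eEF-1Bb1 (−0.31), the last named after its values were seen. They were above the sum for AT1G17080 (0.38), which encodes a protein like L18a, and for AT4G26060 (0.75). These counts are at or under the background, since 6 and 2 of 250 members (2.4 and 0.8%) were called where 2.35 and 4.85% of all tested genes were. The RPS2D call was lost in 9 of 23 alternative analyses, that of AT2G18110 in 6, and those of RPL10B and AT1G17080 in 4 each, while eEF-1Bb1 was not among the calls run under alternatives.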

How the results depend on the processing

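The 87 calls of members named by the stated rule were each checked under 15 to 23 alternative analyses, 1466 checks in all. The call was kept in 1364 checks and lost in 102. Of the 87 calls, 65 were kept in every check and none changed direction. Calls of other genes the text names were not run. Members lower in gyf1 gyf2-1 numbered 130 to 141, and in gyf1 gyf2-2 118 to 132, with other size factors, no filter, DESeq2, limma voom or scaling on genes that are not members. With the replicate number as a block they numbered 168 and 150, where 13.2 and 13.9% of all tested genes fell, while 4 rose in gyf1 gyf2-1 and 4 fell in gyf2, where 0.989% of all tested genes fell. Only 5 of 30 same-numbered pairs had a correlation over 0.1, a cut-off chosen here (−0.069 to 0.194), so the main fit did not pair libraries by number. Yet 9 of 15 libraries correlated best with their own number among the 3. The highest correlation was that of replicate 1 in gyf1 gyf2-1 and WT. Whether same-numbered libraries were handled together was not tested. Fitting only the libraries compared gave 0 members lower in gyf2 and 1 higher in gyf1 gyf2-1. The other alternatives were chosen after seeing the data. Leaving out the farthest libraries, that of gyf1 excepted, itself moves the members towards below the sum of the single mutants. Without the farthest library of each genotype, 1 member fell in gyf1, 4 rose in gyf2 (median 0.013), 2 were higher in gyf1 gyf2-2 than in gyf1 gyf2-1, 195 were lower in double than in single mutants (15.4% of all tested genes), and 75 were below and 1 above the summed single mutants (median −0.224). With gyf1 replicate 1 kept, 4 rose in gyf2 (median 0.01), 201 were lower in double mutants (16.4% of all tested genes) and 108 were below the sum (median −0.256, 3.76% of all tested genes). With only 40S, 60S and L41 genes, members higher numbered 0 for gyf2, 1 for gyf1 gyf2-1, 2 for gyf1 gyf2-2, 0 for double against single mutants and 0 for non-additivity (3 lower), and the share of counts was 5.032% in gyf1 and 4.91% in gyf2. By summed FPKM the share was 8.504% for gyf1, 8.314% for gyf2, 7.167% for gyf1 gyf2-1 and 7.309% for gyf1 gyf2-2, against 8.858% in WT. Keeping only descriptions that open with 40S or 60S was not run, because descriptions open with a gene name.

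Leaving out 1 library at a time, members higher ranged from 1 to 1 for gyf1, 0 to 1 for gyf2, 1 to 4 for gyf1 gyf2-1 and 3 to 7 for gyf1 gyf2-2, and members lower from 0 to 0, 0 to 2, 79 to 188 and 80 to 152 in the same order. The medians ranged from −0.174 to −0.021 for gyf1, −0.194 to −0.052 for gyf2, −0.401 to −0.219 for gyf1 gyf2-1 and −0.346 to −0.184 for gyf1 gyf2-2. Between the lines they ranged from −0.03 to 0.111, with 1 to 1 higher and 0 to 0 lower. Double against single mutants gave 4 to 6 higher, 81 to 152 lower and medians from −0.214 to −0.143. Non-additivity gave 1 to 3 higher, 2 to 7 lower and medians from −0.13 to 0.008. The share of counts ranged from 5.28 to 5.47% for gyf1, 5.125 to 5.444% for gyf2, 4.334 to 4.689% for gyf1 gyf2-1 and 4.494 to 4.823% for gyf1 gyf2-2, against 5.402 to 5.938% in WT. The cause of these shifts was not tested. With 3 libraries per genotype, changes near the size of the single mutants' medians are at the limit of what these data resolve.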
